A study of Mus musculus with 2 samples.

Results

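The cadherin superfamily genes measured here were 67 genes whose symbols match Cdh followed by a number, Cdhr followed by a number, or begin with Pcdh, and which held at least 10 counts summed over both libraries. They were chosen by symbol and by that count sum alone, from 97 genes with matching symbols and 32227 genes in all. Of the 97, 30 fell under the minimum and 3 of those had 0 counts. The members nearest above the minimum were Pcdhb18 with 11 counts and Pcdhgb1 with 14, and the nearest below were Pcdha11 with 9, Pcdhb11 with 7 and Pcdhb15 with 7. The 67 members comprised 22 cadherins, 3 cadherin-related genes, 9 nonclustered protocadherins, 21 genes of the Pcdh gamma cluster, 9 of the beta cluster and 3 of the alpha cluster. The 22 cadherins held 78.3% of the members' counts, and the gamma cluster held 9.76%.

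The data were single-nucleus RNA counts from NKCC2-CreERT2-INTACT mice, in which the NKCC2 (Slc12a1) promoter drives a tamoxifen-inducible Cre that turns on a green fluorescent nuclear envelope protein in thick ascending limb (TAL) cells. Both libraries came from male mice of strain B6 labelled WT, with an age given as 12 without a unit, and tamoxifen at 1 mg per day for 5 days followed by 10 days of induction. Fluorescent nuclei were sorted from a superficial strip of about 20% of kidney depth (cortex) or from the remaining tissue (medulla), so deep cortex lies in the medulla library. There was 1 library per region, so no comparison had a replicate check, no p-values were computed, and all intervals are 95% intervals for counting error only.

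Classical cadherins are calcium-dependent adhesion proteins whose extracellular repeats bind cadherins of neighbouring cells and whose tails bind β-catenin and p120-catenin, which link them to actin through α-catenin. Protocadherins share the extracellular repeats but lack the catenin-binding tail, and the clustered protocadherins give neurons their surface identity. Those of the alpha and gamma clusters join alternative first exons to shared last exons. In kidney tubules, E-cadherin (Cdh1) and kidney-specific cadherin (Cdh16) are best known from distal and from most tubule segments respectively, and N-cadherin (Cdh2) from the proximal tubule.

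TAL classes were set among nuclei with at least 10 Slc12a1 counts, by marker counts that include no cadherin. Macula densa (MD) nuclei had at least 3 counts over Nos1 and Pappa2, TAL-β nuclei at least 2 of Tmem52b, TAL-γ nuclei at least 2 over Tmem207 and Gpc5, and the remaining nuclei were TAL-α. Cortex held 2709 TAL-α, 1326 TAL-β, 232 TAL-γ and 594 MD nuclei, and medulla held 3618, 542, 3327 and 73. TAL-γ was thus 4.77% of cortical and 44.0% of medullary TAL nuclei. The study named its TAL-γ cells from clusters and described them as exclusive to the medulla. The classes here are therefore not the same sets. Of the 232 cortical TAL-γ nuclei, 131 lay in the deposited cluster with most TAL-β nuclei, 599. Median counts per nucleus ran from 1836.5 in cortical MD to 2769 in medullary TAL-β, and the libraries shared 0 barcodes. Genes outside the rule followed the class names in most cases, and examples are given for cortex only. Ptger3 was 1228 CPM in cortical TAL-α against 67.7 CPM in TAL-β. Kcnj10 was 153 CPM in TAL-β against 17.4 CPM in TAL-α, and Robo2 was 5508 CPM in cortical MD against 474 CPM in TAL-α. Such values are not given here for TAL-γ or for the medullary classes. Levels are in CPM, the counts of a gene scaled to a fixed total over the summed nuclei of a class.

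Sequence upstream of Cdh6 and Pcdh19 is shown because these members differed most between medullary TAL-γ and TAL-α, in opposite directions. It was taken from RefSeq (GRCm38.p6), which held promoter entries for 21 of the 67 members, and the 250 bases before each annotated start are printed, on the minus strand of chr15:13173676-13173925 and chrX:133688994-133689243. Capitals mark matches to a GC box (GGGCGG, both strands) or a CCAAT box (CCAAT, both strands).
Cdh6: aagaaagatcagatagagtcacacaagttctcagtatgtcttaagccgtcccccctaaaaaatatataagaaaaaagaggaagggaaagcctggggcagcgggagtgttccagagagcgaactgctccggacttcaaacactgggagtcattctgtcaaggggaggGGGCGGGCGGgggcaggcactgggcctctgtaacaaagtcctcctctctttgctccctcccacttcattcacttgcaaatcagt
Pcdh19: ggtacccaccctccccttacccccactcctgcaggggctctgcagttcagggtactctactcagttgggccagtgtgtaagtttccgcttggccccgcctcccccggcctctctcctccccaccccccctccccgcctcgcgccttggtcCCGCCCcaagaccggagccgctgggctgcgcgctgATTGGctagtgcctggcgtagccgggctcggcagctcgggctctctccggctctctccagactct
Cdh6 held 2 overlapping GC boxes, the first starting 84 bases before the start, and 6 CpG. Pcdh19 held 1 GC box at 100 bases and 1 CCAAT box at 65 bases before the start, and 16 CpG, against a median of 6 CpG over 32851 entries. A GC box was present in 32.7% of all entries and a CCAAT box in 33.8%. The TATA box (TATAAA, in 12.4% of entries), the HNF1 half-site (GTTAAT, 6.43%) and the E-box (CAGGTG, 17.2%) were searched on both strands and had no match in either window.

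The cadherins Cdh1, Cdh16, Cdh6 and Cdh3 carried most of the counts in every TAL class. Cdh1 (GRCm39 chr8:107329941-107396880) encodes E-cadherin, Cdh16 (chr8:105328543-105351028) kidney-specific cadherin, Cdh6 (chr15:13028787-13174004) K-cadherin and Cdh3 (chr8:107237456-107283929) P-cadherin. At least 1 count of any of these was seen in 91.8% of cortical TAL-α, 93.0% of medullary TAL-β, 84.0% of medullary TAL-α and 77.2% of medullary TAL-γ nuclei. Per kilobase of annotated gene span, the level over all TAL nuclei was 14.2 CPM for Cdh16, 4.90 for Cdh1, 1.78 for Cdh6 and 1.44 for Cdh3, a rough scale because nuclear reads from introns also count.

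Cdh16 varied little between classes, and Cdh1 varied more. Cdh16, an atypical cadherin with a short tail, was 283, 279, 280 and 291 CPM in cortical TAL-α, TAL-β, TAL-γ and MD and 341, 313, 358 and 306 CPM in the same classes of medulla. Its largest ratio in the compared classes was 1.21 (1.14 to 1.27), for medullary over cortical TAL-α. In barcodes not called as nuclei Cdh16 was 453 CPM in cortex and 604 CPM in medulla, above every class, and the part of free RNA in its evenness was not tested. Cdh1, the main epithelial cadherin of adherens junctions, was 391, 326, 344 and 247 CPM in cortex and 350, 328, 259 and 381 CPM in medulla. Medullary TAL-γ had less Cdh1 than medullary TAL-α by counting error (ratio 0.741, 0.701 to 0.783), and cortical MD less than cortical TAL-α and TAL-β together (0.672, 0.598 to 0.752). Medullary MD, with 56 Cdh1 counts in 73 nuclei, showed no such difference.

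In CPM, Cdh6 was the member with the widest range over the TAL classes. It was 425 CPM (410 to 440) in cortical TAL-α, 429 CPM (409 to 449) in TAL-β, 314 CPM (275 to 357) in TAL-γ and 380 CPM (348 to 415) in MD. In medulla it was 342 CPM (314 to 371) in TAL-β and 374 CPM (282 to 487) in MD, but 189 CPM (180 to 199) in TAL-α and 51.7 CPM (47.0 to 56.9) in TAL-γ. Cortical classes, medullary TAL-β and medullary MD thus lay above medullary TAL-α, and medullary TAL-γ lay lowest. Cdh6 in medullary TAL-γ was 0.273 (0.245 to 0.304) of TAL-α and 0.152 (0.133 to 0.172) of TAL-β, and its interval overlapped that of no other TAL class. Cdh6 counts were present in 55.0% of cortical TAL-α nuclei (median 2415 counts) and 7.24% of medullary TAL-γ nuclei (median 2388 counts). In medullary barcodes with fewer than 10 Slc12a1 counts, of which 105 of 154 were led by proximal tubule markers, the share was 9.74% (median 3870.5 counts). With every barcode thinned to 1000 counts, the shares were 33.4%, 4.09% and 3.92%. The level in uncalled medullary barcodes was 134 CPM, above that of TAL-γ as a whole, and the part of free RNA in the TAL-γ counts was not tested.

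**Figure D1:**
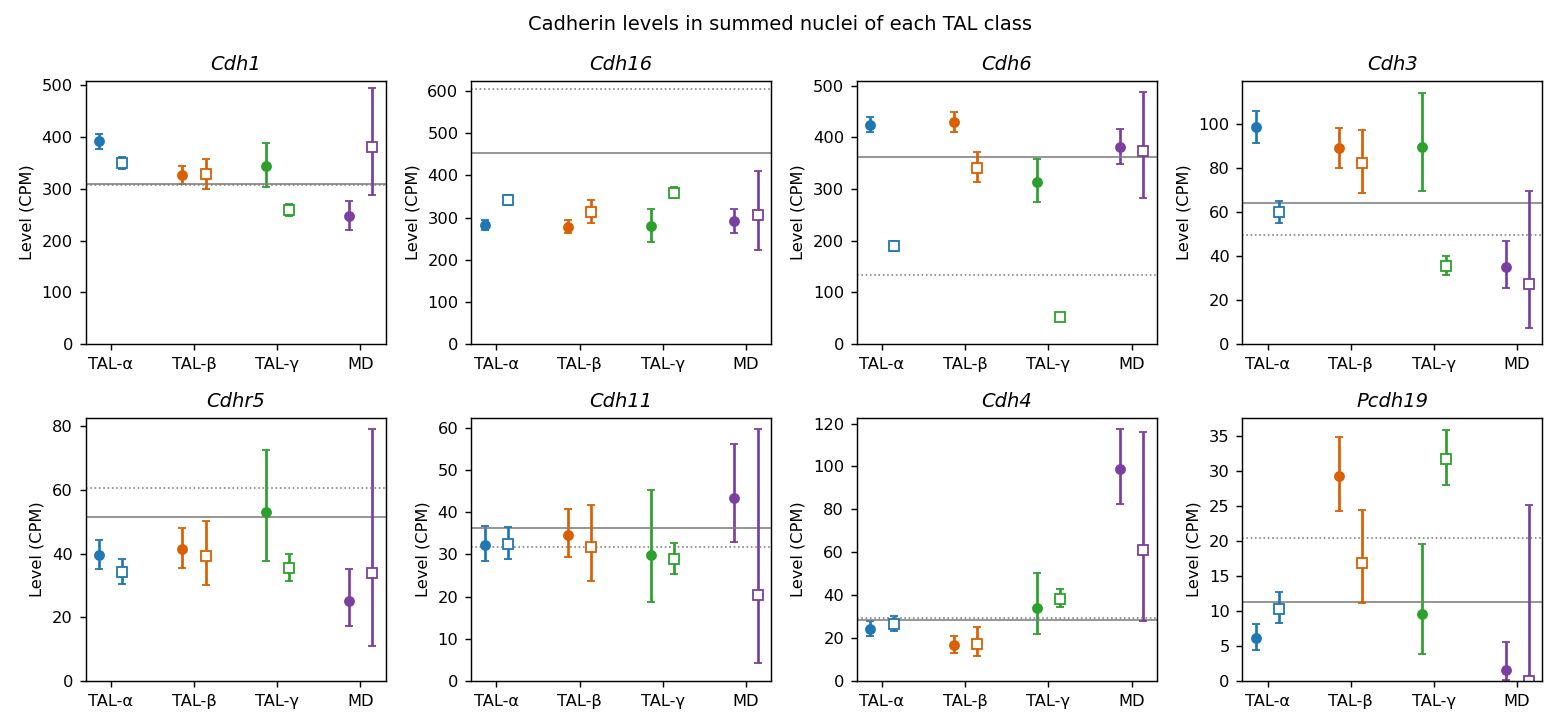
Levels (CPM, linear axes from 0) of 8 cadherin genes in summed nuclei of TAL-α, TAL-β, TAL-γ and MD, for cortex (filled circles) and medulla (open squares) with 95% counting intervals. Grey lines give the level in uncalled barcodes (solid, cortex; dotted, medulla). Cdh6 falls to 51.7 CPM in medullary TAL-γ while Cdh16 stays between 279 and 358 CPM in all classes, Cdh4 is highest in cortical MD (98.9 CPM), and Pcdh19 is highest in cortical TAL-β (29.2 CPM) and medullary TAL-γ (31.7 CPM).

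Between cortical TAL-β and TAL-α, 2 of the 32 members with the minimum of 50 counts over both classes were at least 2-fold different, both higher in TAL-β. Over all genes tested 3.6% passed the same fold, 1.94% higher and 1.67% lower, and the median log2 ratio was 0.03 for members and 0.01 for all genes. Pcdh19 (chrX:132483609-132589819), a nonclustered δ-protocadherin, was 29.2 CPM (24.3 to 34.9) in TAL-β and 6.11 CPM (4.47 to 8.15) in TAL-α, a ratio of 4.78 (3.39 to 6.87) from 124 and 46 counts. Cdh2 was the other, 15.1 against 7.17 CPM (ratio 2.10, 1.44 to 3.08), and it moved with proximal tubule markers as described further on. Cdh6 did not differ between these classes (ratio 1.01, 0.953 to 1.07).

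In medulla, 4 of 27 members with the minimum were at least 2-fold different between TAL-β and TAL-α, 1 higher and 3 lower, against 5.25% of all genes (2.08% higher and 3.17% lower). Pcdh7 was higher (30 against 75 counts), and Pcdh11x, Pcdhgb5 and Pcdhgb6 were lower with 4, 5 and 9 counts in TAL-β. Pcdhgb5 and Pcdhgb6 passed 2-fold in only 7 of 10 alternatives, with ratios up to 0.711 and 0.738. Cdh6 was 1.80 (1.63 to 1.99) times TAL-α, and Pcdh19 was 1.63 (1.02 to 2.52) times, 16.8 against 10.3 CPM. Neither reached the 2-fold mark, and the Cdh6 difference was not seen at like shares of medulla-list counts below 80%, a measure described further on.

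Between medullary TAL-γ and TAL-α, 3 of 34 members passed 2-fold, 1 higher and 2 lower, against 2.66% of all genes (0.567% higher and 2.09% lower). They were Cdh6 (lower, above), Pcdh19 (higher) and Pcdhga1 (lower, 18 against 40 counts), the last a gene of the gamma cluster that lies outside the rule for named genes. Pcdh19 was 31.7 CPM (28.0 to 35.8) in TAL-γ, a ratio of 3.08 (2.42 to 3.94) from 263 and 92 counts. Pcdh19 in uncalled barcodes was 20.5 CPM in medulla, so the TAL-α level of 10.3 CPM lay under that of free RNA. Cdh3 was 59.9 CPM in TAL-α and 35.6 CPM in TAL-γ (ratio 0.594, 0.514 to 0.686), and Cdh4 (R-cadherin) was 26.7 and 38.4 CPM (ratio 1.44, 1.21 to 1.71).

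Against medullary TAL-β, 5 of 25 members passed 2-fold in TAL-γ, 2 higher and 3 lower, where 7.09% of all genes did (3.34% higher and 3.75% lower). Lower were Cdh6, Cdh3 (35.6 against 82.1 CPM, ratio 0.433, 0.352 to 0.536) and Pcdh7. Higher were Cdh4 (38.4 against 17.4 CPM, ratio 2.20, 1.49 to 3.37) and Pcdh11x, which had 4 counts in TAL-β.

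Medullary TAL-α and TAL-γ nuclei were then ordered by their summed Tmem207 and Gpc5 counts, a description chosen after the class levels had been seen. The same counts split these classes, so the series restates that split in finer steps and adds no separate evidence. Cdh6 was 205 CPM in the 2915 nuclei with 0 marker counts, 124 with 1, 70.8 with 2 to 3, 62.4 with 4 to 7 and 30.3 with 8 to 37. Pcdh19 ran the other way, from 8.57 through 17.8, 19.5 and 28.4 to 42.5 CPM, and Cdh3 fell in parallel with Cdh6 from 62.8 to 29.7 CPM. Cdh16 did not follow, at 336 CPM with 0 marker counts and 359 CPM with 8 to 37. In cortex, at 0, 1, 2 to 3 and 4 to 7 marker counts, Cdh6 was 427, 397, 361 and 305 CPM. Pcdh19 there was 4.85, 17.9, 6.33 and 17.5 CPM, from 33, 13, 2 and 5 counts.

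**Figure D2:**
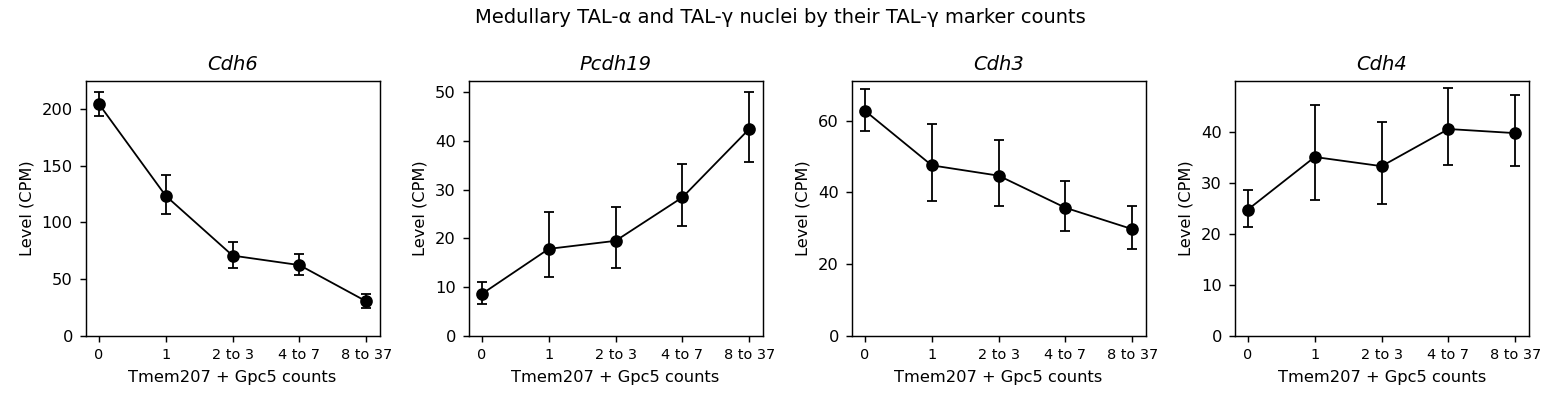
Levels (CPM, linear axes from 0, 95% counting intervals) of Cdh6, Pcdh19, Cdh3 and Cdh4 in medullary TAL-α and TAL-γ nuclei grouped by their Tmem207 plus Gpc5 counts. Cdh6 runs from 205 CPM at 0 marker counts to 30.3 CPM at 8 to 37, and Pcdh19 from 8.57 to 42.5 CPM.

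Medullary and cortical TAL-α, compared across the 2 libraries, differed at least 2-fold in 5 of 35 members, all lower in medulla, where 10.3% of all genes passed, 8.73% lower and 1.59% higher. The median log2 ratio was -0.23 for members and -0.07 for all genes. Cdh6 was 0.446 (0.420 to 0.473) of its cortical level, Cdh3 was 0.608 (0.543 to 0.680), and Pcdh19 was 1.69 (1.17 to 2.46). Pcdh7, Pcdh17, Cdh2 and Cdh23 were the remaining lower members, Cdh23 with 28 against 51 counts and outside the rule for named genes. The study lists Cdh6 among its cortex genes from these same libraries, so its lower level in medulla is not independent evidence. Region, library and animal cannot be told apart here.

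Each nucleus was also placed, after the class levels had been seen, by the share of its counts of 13 medulla genes among those of 13 medulla and 12 cortex genes listed by the study, with Cdh6 left out of the lists. The lists were drawn from these libraries, and the median share was 30.8% in cortical TAL-α, 91.3% in medullary TAL-α and 98.6% in medullary TAL-γ. The cortex list holds Pth1r, which the study found most abundant in TAL-β. Shares can thus differ by class, and nuclei of different classes at like shares need not lie at like positions. In TAL-α nuclei with a share under 20%, Cdh6 was 542 CPM in cortex and 548 CPM in medulla (ratio 1.01, 0.847 to 1.20). Between 20% and 40% it was 476 and 452 CPM (0.949, 0.850 to 1.06), and between 40% and 60% it was 332 and 336 CPM (1.01, 0.888 to 1.16). Up to a share of 60%, TAL-α nuclei of both libraries thus held Cdh6 within counting error of each other. From 60% to 80% the ratio was 1.22 (1.01 to 1.48), and above 80% it was 0.271 (0.203 to 0.369), with 69.0 CPM in 2252 medullary and 254 CPM in 81 cortical nuclei. Of those medullary nuclei 1545 lay above 95%, and the cortical nuclei were too few for finer steps of at least 50. The ratio above 80% therefore need not compare like shares. TAL-β also declined, and Cdh6 there went from 650 to 210 CPM over 4 steps in cortex and from 592 to 190 CPM over 5 steps in medulla. Between medullary TAL-β and TAL-α at like shares the Cdh6 ratio was 1.08, 0.962, 1.08 and 0.886 in the 4 steps below 80%, each with an interval that included 1, and 2.75 (2.13 to 3.52) above 80%. Within that last step the shares were unequal, with 61 of 140 TAL-β but 367 of 2252 TAL-α nuclei under 90%. From 80% to 90% Cdh6 was 236 CPM (172 to 316) in TAL-β and 174 CPM (148 to 203) in TAL-α. Above 95% it was 83.5 CPM (43.1 to 146) in 50 TAL-β and 36.4 CPM (30.4 to 43.3) in 1545 TAL-α nuclei.

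**Figure D3:**
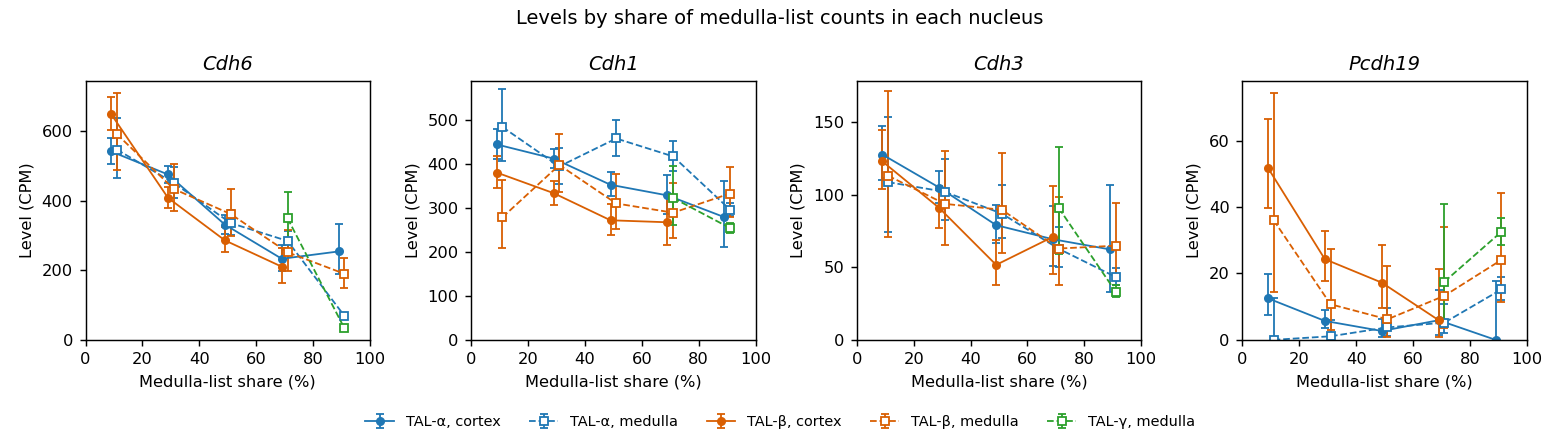
Levels (CPM, linear axes from 0, 95% counting intervals) of Cdh6, Cdh1, Cdh3 and Pcdh19 against the share of medulla-list counts in a nucleus, in steps of 20 percentage points, for TAL-α, TAL-β and medullary TAL-γ; groups under 50 nuclei are left out. Cdh6 of cortical and medullary TAL-α overlaps up to 60%. Above 80% it is 254 and 69.0 CPM, in a step where the shares of the 2 libraries may be unequal. Pcdh19 is higher in cortical TAL-β than TAL-α at shares under 60%.

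TAL-γ and TAL-α of medulla also had unequal shares, so they were set side by side at like shares. Above 95%, Cdh6 was 19.7 CPM in 2655 TAL-γ and 36.4 CPM in 1545 TAL-α nuclei (ratio 0.541, 0.420 to 0.697), and from 90% to 95% it was 46.8 and 93.1 CPM (0.503, 0.335 to 0.744). From 80% to 90% the 187 CPM in TAL-γ and 174 CPM in TAL-α did not differ by counting error (1.08, 0.822 to 1.40). From 60% to 80% TAL-γ had 350 CPM in 103 nuclei and TAL-α 285 CPM (1.23, 0.977 to 1.54). The lower Cdh6 of TAL-γ was therefore seen at shares above 90%, with a ratio closer to 1 than over all nuclei. Pcdh19 above 95% was 36.3 CPM in TAL-γ and 17.2 CPM in TAL-α (ratio 2.11, 1.59 to 2.84). From 80% to 90% its ratio was 1.11 (0.333 to 3.39) and from 90% to 95% it was 1.45 (0.584 to 3.80), neither distinguishable from 1. Cdh3 was 0.894 (0.702 to 1.14) above 95%, 0.633 (0.402 to 0.984) from 90% to 95%, 1.22 (0.806 to 1.83) from 80% to 90% and 1.45 (0.895 to 2.27) from 60% to 80%, so its lower level in TAL-γ was not seen in most steps.

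Pcdh19 in cortex was higher in TAL-β than TAL-α at like shares below 60%, with the limit that Pth1r in the cortex list can shift TAL-β shares. Under 20% it was 51.8 CPM in TAL-β and 12.5 CPM in TAL-α (ratio 4.14, 2.42 to 7.45), from 20% to 40% it was 24.3 and 5.70 CPM (4.26, 2.43 to 7.74), and from 40% to 60% it was 17.2 and 2.67 CPM (6.45, 2.23 to 22.7). From 60% to 80% the ratio was 1.00, from only 2 and 4 counts. Within cortical TAL-β, Pcdh19 was highest at the cortex end. Over the 5 steps of medullary TAL-β it was 36.0, 10.7, 6.19, 13.3 and 24.1 CPM, from 7, 4, 2, 4 and 10 counts. Within medullary TAL-γ it was 17.5 CPM from 60% to 80% and 32.5 CPM above 80%. Medullary TAL-α held 1 Pcdh19 count in 342 nuclei from 20% to 40% and 80 counts in 2252 nuclei above 80%.

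Cdh3 also declined with the share, from 128 to 62.4 CPM over cortical TAL-α and from 109 to 43.4 CPM over medullary TAL-α. In each of the 5 steps, the interval of its medullary over cortical TAL-α ratio included 1. Cdh1 was 443 CPM under 20% and 278 CPM above 80% in cortical TAL-α, and 483 and 295 CPM in medullary TAL-α. Its medullary level was above the cortical one from 40% to 60% (ratio 1.30, 1.15 to 1.46) and from 60% to 80% (1.27, 1.09 to 1.49).

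Levels were also taken within the clusters deposited with each library. The clusters came from all genes, cadherins included, so these levels are a description. Among 9 medullary clusters with at least 100 TAL nuclei, Cdh6 ran from 7.44 to 398 CPM and Cdh1 only from 149 to 437 CPM. TAL-α nuclei alone had 342 CPM of Cdh6 in 1 cluster of 1455 nuclei, 80.2 CPM in a cluster holding 727 and 9.62 CPM in a cluster holding 638. In the same TAL-α groups Pcdh19 was 1.06, 17.9 and 20.6 CPM. Medullary TAL-α was thus made of groups that differed more in Cdh6 than TAL-α and TAL-γ did on average. In cortex, the cluster with 1288 TAL-α nuclei held 518 CPM of Cdh6 and 3 counts of Pcdh19, while 419 TAL-β nuclei of another held 686 CPM and 57 counts. In that latter cluster the 121 TAL-α nuclei had 70.4 CPM of Pcdh19, near the 62.6 CPM of its TAL-β nuclei (ratio 0.888, 0.515 to 1.60). In the cluster with most TAL-β nuclei, 599, Pcdh19 was 25.5 CPM in TAL-β and 39.5 CPM in 106 TAL-α nuclei (ratio 0.646, 0.308 to 1.51, from 40 and 9 counts). The higher Pcdh19 of cortical TAL-β was thus not seen within these 2 clusters. TAL-α is the class left after the marker minimums, and both clusters held more TAL-β than TAL-α nuclei. Their TAL-α nuclei can thus include TAL-β nuclei with fewer than 2 Tmem52b counts, which was not tested. The ratios within them therefore do not show that TAL-α cells hold as much Pcdh19 as TAL-β cells. In the other cortical clusters compared, 6, 7 and 9, the ratio was 1.77 (0.421 to 8.55), 3.66 (1.02 to 16.3) and 1.52 (0.424 to 6.75). Each of these rested on 4 TAL-α counts. In medulla, the TAL-γ over TAL-α ratio of Pcdh19 was 1.01 (0.442 to 2.10), 1.17 (0.629 to 2.13) and 0.828 (0.273 to 2.77) in 3 clusters and 2.84 (1.31 to 7.32) in another. In clusters 7, 8 and 10, Pcdh19 was 24.8, 31.4 and 10.3 CPM in TAL-γ. The TAL-α levels there were 6.50, 4.70 and 2.82 CPM, each from only 1 count. In the 1 medullary cluster with enough TAL-β and TAL-α nuclei, the TAL-β over TAL-α ratio was 0.850 (0.694 to 1.05) for Cdh6 and 0.610 (0.232 to 1.88) for Pcdh19.

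The macula densa is the plaque of TAL cells that senses luminal salt beside the glomerulus. In cortex 14 of 33 members with the minimum were at least 2-fold different between MD and TAL-α plus TAL-β, 9 higher and 5 lower, against 13.9% of all genes (6.1% higher and 7.77% lower). The median log2 ratio was 0.48 for members and 0.02 for all genes. Of the 33, 14 were genes of the Pcdh gamma cluster, all with ratios above 1. They share last exons, as described further on, and gave 8 of the 9 higher members. The count and the median therefore lean on a single locus and do not show a rise over the whole family. Cdh4 (chr2:179084201-179541166), R-cadherin, was 98.9 CPM (82.6 to 117) in MD against 24.2 CPM in TAL-α and 16.7 CPM in TAL-β. Its ratio was 4.60 (3.69 to 5.71) from 130 and 253 counts, and in medulla 9 MD counts gave 61.2 CPM (28.0 to 116) against 31.0 CPM in the other TAL nuclei (1.97, 0.897 to 3.77). Cdh3 was the opposite case, 35.0 CPM (25.6 to 46.7) in MD against 95.1 CPM (ratio 0.368, 0.268 to 0.494). Pcdh19 had 2 counts in 594 MD nuclei against 170 in TAL-α and TAL-β (ratio 0.105, 0.0127 to 0.386), and 0 counts in 73 medullary MD nuclei.

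Pcdh11x (5 counts in MD), Pcdh1 (3) and Cdh23 (2) were the other lower members, the last 2 outside the rule for named genes. Cdh6 (ratio 0.893, 0.813 to 0.979) and Cdh16 (1.03, 0.927 to 1.15) were close to the level of the other TAL nuclei. Pcdh7 was 48.7 CPM in MD against 28.7 CPM (ratio 1.70, 1.28 to 2.22). In nuclei with fewer than 3 counts of markers of other cell types the Pcdh7 ratio was 4.70 (2.98 to 7.34), with 36.6 CPM in MD, 8.91 CPM in TAL-α and 5.25 CPM in TAL-β.

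The other 8 higher members were all genes of the Pcdh gamma cluster: Pcdhga1, Pcdhga3, Pcdhga5, Pcdhga6, Pcdhgb5, Pcdhgb6, Pcdhgc3 and Pcdhgc4, of which Pcdhga1, Pcdhga3, Pcdhgc3 and Pcdhgc4 lie outside the rule for named genes. Each gene of the gamma cluster shares its span on the same strand with other members in the annotation, and how reads in the shared exons were assigned is not given in the sources used here, so single-gene values are uncertain and the cluster sum was used. Summed over 21 genes, the gamma cluster was 297 CPM (269 to 328) in cortical MD, 148 CPM (140 to 157) in TAL-α, 148 CPM (137 to 160) in TAL-β and 144 CPM (118 to 174) in TAL-γ. In medulla it was 231 CPM (160 to 323) in MD, 120 CPM in TAL-α, 105 CPM in TAL-β and 113 CPM in TAL-γ. MD thus held the highest sum in both libraries, with ratios to the other TAL nuclei of 2.00 (1.79 to 2.24) in cortex and 2.00 (1.38 to 2.80) in medulla, where the interval rests on 34 counts. The 14 gamma genes with the minimum had ratios from 1.21 to 3.09 in cortical MD, though shared reads tie them together. Of these, 8 were at least 2-fold higher, against 6.1% of all genes. Nuclei with 3 or more marker counts of other cell types were 13.1% of cortical MD and 26.0% of cortical TAL-α, but MD nuclei were shallower (medians 1836.5 and 2415 counts). Of the marker lists with most counts, proximal tubule was lower in MD (2086 against 2959 CPM). Distal convoluted tubule was higher (472 against 162 CPM). Without nuclei carrying 3 or more such counts, the gamma sums were 323 CPM in MD, 159 CPM in TAL-α and 136 CPM in TAL-β.

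The beta cluster, whose genes are single exons, was 37.3 CPM (27.6 to 49.3) in cortical MD against 9.83 CPM in TAL-α and 11.3 CPM in TAL-β. Its ratio to both together was 3.60 (2.53 to 5.05) from 49 and 122 counts. Medullary MD had 5 counts (34.0 CPM, 11.0 to 79.3) against 3.51 CPM in the other TAL nuclei. The 3 alpha cluster members held 3 counts in cortical MD and 0 in medullary MD, too few to show a difference. Between TAL-α, TAL-β and TAL-γ of a library the gamma sum ranged by less than counting error (TAL-β over TAL-α 0.999 in cortex, 0.905 to 1.10; TAL-γ over TAL-α 0.940 in medulla, 0.860 to 1.03), and medullary TAL-α had 0.810 (0.744 to 0.882) of the cortical sum.

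**Figure D4:**
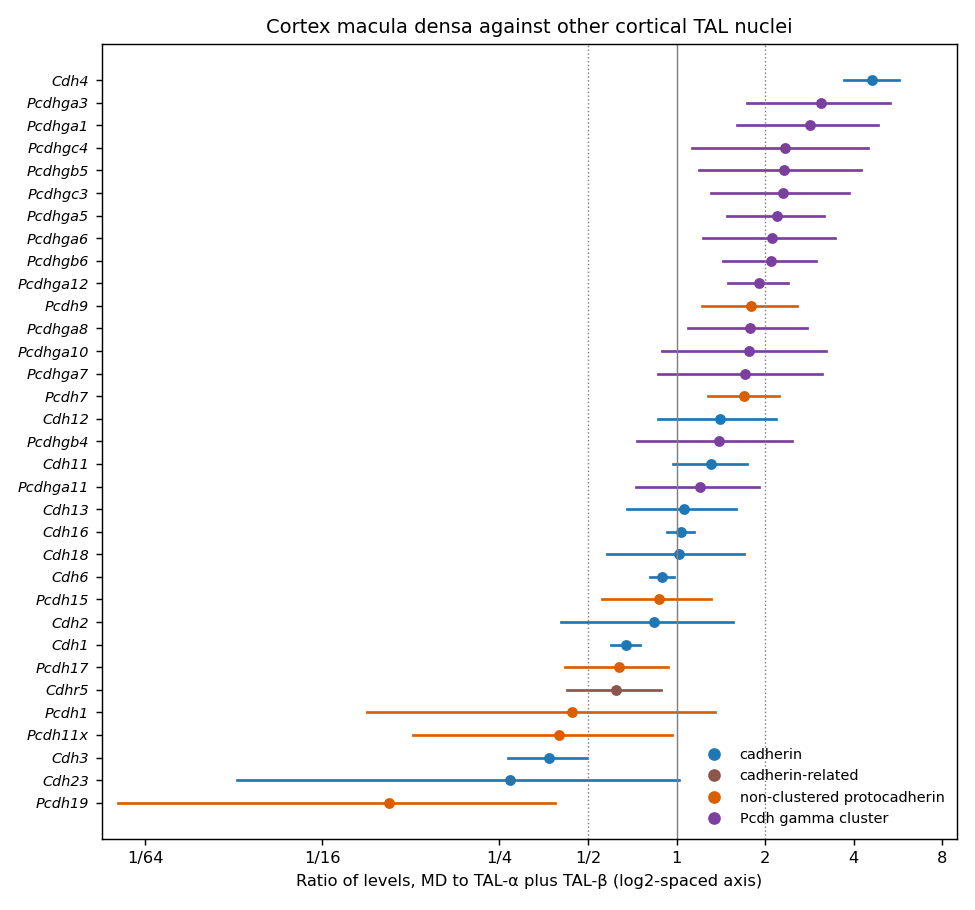
Ratio of levels in cortical MD to cortical TAL-α plus TAL-β (log axis) with 95% counting intervals for the 33 members with at least 50 counts over both, coloured by family; dotted lines mark 2-fold. Cdh4 is at the top (4.60), the 14 Pcdh gamma genes lie from 1.21 to 3.09, and Cdh3 (0.368) and Pcdh19 (0.105) are among the members below the lower dotted line.

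Cdh2, Pcdh7 and Pcdh17 moved with proximal tubule markers. Pcdh7, Pcdh17, Pcdh9 and Cdh2 were at least 3 times higher in the kept barcodes with fewer than 10 Slc12a1 counts than in TAL nuclei. That level is part of the rule for named genes, so it is not a separate result. Other members past it, such as Cdhr2 (9.80 times, 15 counts) and Cdh5 (5.95 times, 16 counts), held fewer than 20 counts. In the 119 cortical barcodes with few Slc12a1 counts led by proximal tubule markers, Pcdh17 was 137 CPM, Pcdh7 145 CPM and Cdh2 45.0 CPM. In the 105 medullary ones they were 194, 66.9 and 83.6 CPM. Summed proximal tubule markers were 2959 CPM in cortical TAL-α, 3602 CPM in TAL-β and 2086 CPM in MD, and 708, 961 and 734 CPM in medulla, with all 10 marker genes above 0 except in medullary MD, where 1 was at 0. In cortical TAL-α nuclei with 10 or more proximal tubule marker counts (330 nuclei, median 5570 counts) Pcdh17 was 85.9 CPM and Cdh2 25.3 CPM. In the 2005 with fewer than 3 counts of other cell type markers (median 2302 counts) they were 4.03 and 1.27 CPM. Nuclei with many proximal tubule counts thus held far more of these genes, and were deeper.

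Leaving out nuclei with 3 or more other-cell marker counts changed each of their comparisons. The TAL-β over TAL-α ratio of Cdh2 in cortex went from 2.10 to 1.13 (0.182 to 5.27), and that of Pcdh7 in medulla from 2.22 to 0.920 (0.350 to 2.05). The TAL-γ over TAL-β ratio of Pcdh7 went from 0.452 to 0.948, and the medullary over cortical TAL-α ratios of Pcdh17, Pcdh7 and Cdh2 from 0.388, 0.309 and 0.313 to 0.859, 0.662 and 0.605. By contrast the Cdh6 ratio of medullary over cortical TAL-α went from 0.446 to 0.377 and that of TAL-γ over TAL-α from 0.273 to 0.269. The Pcdh19 ratio of cortical TAL-β over TAL-α went from 4.78 to 7.17.

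**Figure D5:**
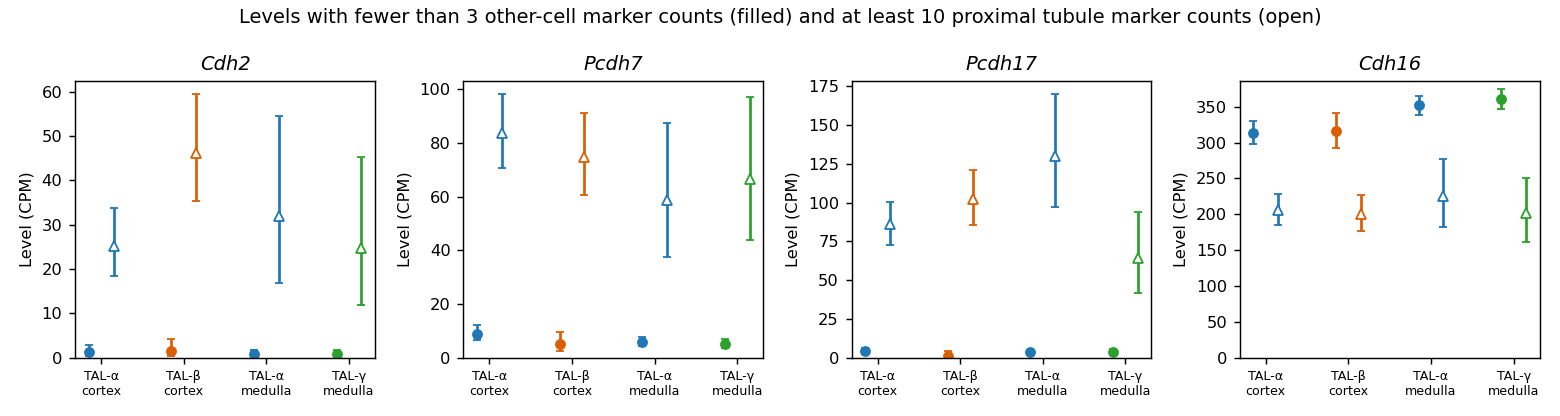
Levels (CPM, linear axes from 0, 95% counting intervals) of Cdh2, Pcdh7, Pcdh17 and Cdh16 in 4 TAL groups, for nuclei with fewer than 3 counts of other cell type markers (filled circles) and those with at least 10 proximal tubule marker counts (open triangles). In cortical TAL-α, Cdh2 is 1.27 and 25.3 CPM and Pcdh17 is 4.03 and 85.9 CPM, while Cdh16 is lower in the nuclei with proximal tubule counts (206 against 314 CPM).

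Pcdh7 was also high in barcodes without leading proximal tubule markers. In 24 medullary barcodes with few Slc12a1 counts and no leading marker list, Pcdh7 was 927 CPM (684 to 1229) from 48 counts, with 0 counts of Cdh2 and Pcdh17. Pcdh9 was likewise higher there, at 212 CPM (106 to 380) from 11 counts against 16.7 CPM in those led by proximal tubule markers, and in cortex the values were 84.4 and 69.5 CPM. In 49 cortical barcodes led by distal convoluted tubule markers, Cdh1 was 421 CPM (327 to 534) and Cdh6 24.8 CPM (6.75 to 63.4), against 425 CPM of Cdh6 in cortical TAL-α.

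Several named members showed no difference of 2-fold in the 6 comparisons. Cdhr5, a cadherin of the microvillus tip complex, was 25.1 to 53.0 CPM over the 8 groups against 51.5 and 60.7 CPM in uncalled barcodes. Cdh11, best known from mesenchymal cells, was 29.9 to 43.4 CPM in cortex and 20.4 to 32.4 CPM in medulla, near the uncalled 36.1 and 31.9 CPM. Cdh13, Cdh12, Cdh18 and Pcdh15, genes spanning 925 to 1550 kb, were likewise at or under their uncalled level in TAL-α. The part of free RNA in the counts of these members was not tested.

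Of 13 catenin, nectin and adaptor genes that partner the cadherins, 12 were tested between cortical TAL-β and TAL-α and 1 was lower by 2-fold (3.6% over all genes), Ctnnd2 (δ-catenin, a p120-catenin relative), with 11.3 against 47.8 CPM (ratio 0.237, 0.171 to 0.320). Ctnnd2 was also the only 1 of 12 past 2-fold in cortical MD (13.9% over all genes), 253 against 34.7 CPM (ratio 7.28, 6.28 to 8.44), the same class in which Cdh4 was highest. In medullary MD it was 204 CPM from 30 counts against 30.5 CPM in the other TAL nuclei (ratio 6.69, 4.47 to 9.65). Ctnnb1 (β-catenin) was 66.3, 60.1, 58.5 and 48.7 CPM in cortical TAL-α, TAL-β, TAL-γ and MD, and Ctnna1 (α-catenin) was 386, 422, 424 and 304 CPM. In medullary MD, where counts are few, 2 of 12 were higher and 2 lower, against 16% and 25.5% of all genes (41.5% in either direction). Between medullary TAL-γ and TAL-α 0 of 12 passed 2-fold (2.66% over all genes). Between medullary and cortical TAL-α, 2 of 13 were lower (8.73% over all genes), Ctnna2 (0.354, 0.309 to 0.405) and Nectin1 (0.324, 0.217 to 0.475). Ctnna2 was 368 and 631 CPM in barcodes with few Slc12a1 counts.

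Among 4 genes of brush border adhesion, the complex that holds Cdhr2 and Cdhr5 at microvillus tips, 3 were lower in medullary than cortical TAL-α, against the same 8.73%: Ush1c (47.8 against 101 CPM, ratio 0.475, 0.421 to 0.536), Myo7b (0.244) and Anks4b (0.294). Myo7b was 86.1 and 72.9 CPM in barcodes with few Slc12a1 counts against 5.16 to 21.1 CPM in TAL-α, and the part of proximal tubule RNA in its difference was not tested. Of 14 cadherin relatives such as Fat1 and Celsr1, 5 to 7 had the count minimum in each of the 6 comparisons. All 4 shedding genes, such as Adam10, had it. None of those tested passed 2-fold, against 2.66% to 13.9% of all genes. With so few tested, that is near the shares over all genes.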

How the data were processed

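PIPseq libraries of sorted nuclei were used. The authors mapped them to GRCm39 with PIPseeker 3.3.0, and the matrices they deposited hold unnormalized counts, both for all barcodes and for those called as nuclei. These counts precede the authors' doublet removal, ambient RNA correction and scTransform. The submitters' processing notes name bcl2fastq and Seurat 4.4.0. No cell type names were used.

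Called barcodes were required to have 500 genes or more and a mitochondrial share of 5% or less. Scrublet (scanpy 1.11.5) was then run on each library. It called 359 of 5442 barcodes in cortex. In medulla 8120 of 8121 barcodes passed, and it called only 2, so the highest-scoring 5% (406) were removed, which left 5083 and 7714 barcodes. All called barcodes held 16457300 and 20947211 counts (medians 2427 and 2430 per barcode). Counts were summed over a class and divided by its total (CPM), with exact Poisson intervals. Ratios carry exact conditional binomial intervals. A difference was counted where both classes together held at least 50 counts and the ratio was at least 2 or at most 0.5; the percentages over all genes use the same rule. The rule was also run on simulated counts drawn from the Poisson model that the intervals assume. Spread between nuclei or libraries was not simulated. Because nuclei of 1 library are not replicates, no p-values were computed.

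Genes named were the 24 members with most TAL counts and members with at least 20 counts, at 3 times the TAL level or more, in barcodes with fewer than 10 Slc12a1 counts; others are said to lie outside this rule. Members matched GENCODE M39 by identifier (67 of 67). Of 38 markers of other cell types, 3 counts or more marked a nucleus as carrying them. The members, lists and classes were chosen with earlier results of these data known. The analysis used Python 3.11.15, numpy 2.4.6, scipy 1.17.1, pandas 2.3.3 and matplotlib 3.10.9. Alternatives covered the class minimums, the barcode filters, thinning to 1000 counts, scaling, the count minimum and the fold. The deposited cluster numbers served only to describe levels within clusters, and the UMAP coordinates were not used here.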

Additional observations from a re-analysis of the deposited data

How the results depend on the processing

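No paired analysis was possible because each region had 1 library, and for the same reason no library could be left out. Of 84 counts of members past 2-fold over the 6 comparisons and 14 alternatives, 59 stayed within 1.5 times the value reported. In the order TAL-β against TAL-α in cortex, the same in medulla, TAL-γ against TAL-α, TAL-γ against TAL-β, MD, and medullary against cortical TAL-α, the counts were 6, 7, 6, 10, 22 and 9 with a fold of 1.5, and 12, 20, 15, 26, 40 and 15 with no count minimum. With a minimum of 20 counts they were 5 in cortical TAL-β, 29 in MD and 10 between regions; with 100 they were 2 in medullary TAL-β, 7 in MD and 3 between regions. Thinning gave 1 in cortical and 0 in medullary TAL-β, 6 in MD and 3 between regions. Without nuclei carrying other-cell markers 2 remained in medullary TAL-β and 2 between regions, and a Tmem52b minimum of 3 gave 8 for TAL-γ against TAL-β. Shares over all genes were not computed under the alternatives. The counts therefore show only how the calls move, and are not results about the members. Of 25 named ratios past 2-fold, 12 stayed past it under every alternative scored for them, among them those of Cdh6, Pcdh19, Cdh3 and Cdh4. Up to 10 alternatives were scored per ratio, without those of the count minimum and the fold. The Pcdh11x ratios among the 12 were scored under 9. Only the Pcdh7 ratio of medullary TAL-β over TAL-α changed side (0.920 without nuclei carrying other-cell markers).

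Comparisons within like shares of medulla-list counts or within a deposited cluster were added after seeing the data. The Cdh6 ratio changed side for TAL-γ over TAL-α at shares from 60% to 80% (1.23) and from 80% to 90% (1.08) and in deposited cluster 8 (1.27, from 8 and 6 counts), and for medullary over cortical TAL-α under 20% (1.01), from 40% to 60% (1.01) and from 60% to 80% (1.22). The Pcdh19 ratio of TAL-γ over TAL-α changed side in cluster 6 (0.828, from 10 and 6 counts), and that of cortical TAL-β over TAL-α in clusters 2 (0.646) and 4 (0.888). Medullary TAL-β over TAL-α, not past 2-fold, also changed side in cluster 6 for Cdh6 (0.850) and Pcdh19 (0.610). The cause was not tested. In the other 6 medullary clusters compared, Cdh6 was lower in TAL-γ than TAL-α, at ratios of 0.244 to 0.723.

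Depth limits the rarer members: medullary MD, at 147091 counts, cannot show a gene under 20.4 CPM (3 counts), and members below 50 counts over a comparison were not compared.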
